A study of Arabidopsis thaliana with 36 samples.

Results

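The genes described here are 37 cell cycle and DNA replication genes of Arabidopsis thaliana. They were taken from the 32833 genes of the count table by a list of locus identifiers, chosen with earlier results of these data known. The list was divided by the phase in which each product acts. The 7 G1 members were the D cyclins CYCD1;1 (AT1G70210), CYCD2;1 (AT2G22490) and CYCD3;1 to CYCD3;3 (in this order AT4G34160, AT5G67260 and AT3G50070), with the transcription factors E2FA (AT2G36010) and E2FC (AT1G47870). The 12 S members were the helicase subunits MCM2 (AT1G44900), MCM3 (AT5G46280), MCM4 (AT2G16440), MCM5 (AT2G07690), MCM6 (AT5G44635) and MCM7 (AT4G02060), the licensing factors CDC6 (AT2G29680) and CDT1A (AT2G31270), the sliding clamps PCNA1 (AT1G07370) and PCNA2 (AT2G29570), the ribonucleotide reductase subunit TSO2 (AT3G27060) and the cyclin CYCA3;1 (AT5G43080). The 17 G2/M members were the kinases CDKB1;1 (AT3G54180), CDKB1;2 (AT2G38620), CDKB2;1 (AT1G76540) and CDKB2;2 (AT1G20930), the cyclins CYCA1;1 (AT1G44110), CYCA2;1 (AT5G25380), CYCA2;3 (AT1G15570) and CYCA2;4 (AT1G80370), the cyclins CYCB1;1 to CYCB1;4 (in this order AT4G37490, AT5G06150, AT3G11520 and AT2G26760), the cyclins CYCB2;1 to CYCB2;4 (in this order AT2G17620, AT4G35620, AT1G20610 and AT1G76310) and the cytokinesis syntaxin KNOLLE (AT1G08560). The A-type kinase gene CDKA;1 (AT3G48750), whose product acts in more than 1 phase, was kept apart. All 37 genes passed the filter on low counts, as did 21562 genes in all.

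The study sequenced mRNA of whole seedlings grown in continuous white light until day 7 and then moved to simulated shade, white light enriched in far-red light, which lowered the red to far-red ratio from about 1.58 to about 0.02. Seedlings of 4 genotypes were collected before shade (0 h) or after 1 or 8 h of it, with 3 biological replicates in each of the 12 groups. The genotypes were the wild type Col-0 (WT), hy5, pif457 and hy5 pif457. The HY5 gene encodes a bZIP protein that promotes development in light, and pif457 combines mutations in PIF4, PIF5 and PIF7, which encode bHLH factors that drive elongation in shade. The labels name the mutant lines without their alleles. No group stayed in white light until 1 or 8 h, so shade and elapsed time cannot be told apart.

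In plants as in animals, D cyclins bound to CDKA release E2F factors from the retinoblastoma protein RBR1, and E2F factors then drive the genes of DNA replication. The MCM2 to MCM7 hexamer is loaded at origins with the help of CDC6 and CDT1, and later unwinds DNA. Many genes of G2 and mitosis, such as those of B cyclins, B-type CDKs and KNOLLE, carry MSA elements, which MYB3R factors bind. In seedlings these transcripts come mostly from the shoot and root meristems and young leaves. In RNA from whole seedlings, fewer dividing cells and less RNA per dividing cell cannot be told apart.

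Sequences that E2F, MYB3R, bZIP and bHLH factors are known to bind were looked for in the 300 bases before each annotated gene start (TAIR10.1 assembly, RefSeq annotation), on both strands. An E2F site, any of TTTCCCGC, TTTCGCGC, TTTGCCGC and TTTGGCGC, was found for 5 of the 12 S members, MCM2 to MCM6. This was 41.7% of the S members, against 1.62% of 20929 tested protein-coding genes. Among the other members only the G1 cyclin CYCD3;3 had such a match. The MSA core AACGG was found for 12 of the 17 G2/M members (70.6%), 2 of the 12 S members and 2 of the 7 G1 members, against 24.4% of the tested protein-coding genes. The G-box CACGTG, a sequence that HY5 and PIF factors can bind, was found for CYCD3;3 and CYCB2;3, against 8.0% of the tested protein-coding genes. These are matches of letters, with no measure of binding.

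Promoters of 4 members are shown because their genes differ in the results below: MCM2 and MCM5 belong to the same helicase, and CYCB1;1 and CYCB2;2 are B cyclins. Capitals mark the E2F site in the MCM promoters and the MSA core, on either strand, in the cyclin promoters. The sequences are read 5′ to 3′ on the strand of the gene, at chr1:16969914-16970213 (plus strand) for MCM2, chr2:3527501-3527800 (minus strand) for MCM5, chr4:17624309-17624608 (minus strand) for CYCB1;1 and chr4:16901296-16901595 (plus strand) for CYCB2;2.
MCM2: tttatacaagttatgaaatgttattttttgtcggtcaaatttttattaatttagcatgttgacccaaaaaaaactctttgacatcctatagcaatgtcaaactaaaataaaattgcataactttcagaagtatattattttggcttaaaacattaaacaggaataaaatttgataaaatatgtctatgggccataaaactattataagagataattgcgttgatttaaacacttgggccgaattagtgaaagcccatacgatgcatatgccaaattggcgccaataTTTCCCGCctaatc
MCM5: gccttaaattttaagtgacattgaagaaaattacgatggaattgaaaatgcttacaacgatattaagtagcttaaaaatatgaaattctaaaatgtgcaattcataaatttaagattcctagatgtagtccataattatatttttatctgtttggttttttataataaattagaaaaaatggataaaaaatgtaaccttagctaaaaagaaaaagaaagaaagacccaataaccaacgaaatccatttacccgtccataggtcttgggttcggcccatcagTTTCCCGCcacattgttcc
CYCB1;1: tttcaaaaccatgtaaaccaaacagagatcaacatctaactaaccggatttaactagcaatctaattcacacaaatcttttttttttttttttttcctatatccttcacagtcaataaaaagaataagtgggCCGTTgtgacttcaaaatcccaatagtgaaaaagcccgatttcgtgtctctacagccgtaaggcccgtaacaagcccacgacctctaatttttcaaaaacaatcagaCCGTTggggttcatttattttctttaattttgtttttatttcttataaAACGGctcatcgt
CYCB2;2: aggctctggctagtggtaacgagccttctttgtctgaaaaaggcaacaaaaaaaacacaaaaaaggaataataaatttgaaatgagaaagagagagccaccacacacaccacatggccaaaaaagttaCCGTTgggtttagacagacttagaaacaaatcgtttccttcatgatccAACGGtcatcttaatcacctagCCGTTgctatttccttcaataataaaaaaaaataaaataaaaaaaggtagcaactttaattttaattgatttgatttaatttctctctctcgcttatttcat
MCM2 and MCM5 carried the same 8-letter E2F match, whose first base lay at -14 in MCM2 and at -19 in MCM5, counted back from the gene start. Each of the 2 cyclin promoters held 3 MSA cores.

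Library totals ran from 30846115 to 58025421 counts, with a median of 37177067. In 12 libraries, those of pif457 at 8 h and of hy5 pif457 at all times, rRNA took 6.01 to 11.616% of the counts, against 0.467 to 2.626% in the other 24. The 12 are called rRNA-rich in what follows. HY5 transcripts in hy5 were at 27.9% of WT at 0 h, and in pif457 PIF5 was at 5.21% and PIF7 at 9.6% of WT, whereas PIF4 was at 80.9% and its difference was not called (edgeR adjusted p = 0.849). Markers of green tissue summed to 36800 to 81900 CPM (counts scaled to a common library size) per library, those of root tissue to 685 to 3630 CPM, and those of shoot meristem and leaf primordium to 93.0 to 252 CPM. The shoot meristem genes WUS and CLV3 were too low to be tested. In 3 libraries, WT at 1 h replicate 3, hy5 at 1 h replicate 3 and hy5 at 8 h replicate 2, the mean log2 CPM of the shoot markers was 1.73, 1.62 and 1.54, below the 2.22 or more of the other 33.

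Differences between groups were tested with the edgeR quasi-likelihood test on the counts of all 36 libraries, and a gene is said to be called, to rise or to fall, where its p adjusted over all 21562 tested genes of the comparison was under 0.05. Each ± beside a log2 difference is a standard error. Members are also counted at an unadjusted p under 0.05, or as called by DESeq2 or other alternative fits. The shares of all tested genes are not given for those counts, so they do not set the list apart. Library sizes were scaled by TMM, and levels of different genes are compared only as CPM per kb of the longest annotated transcript. On that scale TSO2 had the highest mean level over the 36 libraries, 65.4 CPM per kb, followed by CYCD3;2 with 32.7, KNOLLE with 29.7 and CDKA;1 with 25.1. CYCA2;1 was the lowest with 0.537, next to CYCB2;1 with 1.63. The helicase subunits MCM3 to MCM7 lay between 5.96 and 13.3 CPM per kb. Across the 12 groups, CDKA;1 varied least among the members, with a highest group mean 1.13 times its lowest. MCM2 and CYCB1;1 varied most, with ratios of 3.61 and 3.45, while the next in order, the mitotic cyclin CYCA1;1, had a ratio of 2.03. Of the 37 members, 26 were called in at least 1 of the 33 comparisons made between groups. A single comparison called up to 26.5% of all tested genes, and the share of all tested genes called at least once is not given here. The count therefore does not set the list apart. The 11 members that were called in none include 6 S members (MCM4, MCM6, MCM7, CDT1A, PCNA1 and PCNA2) and the kinase CDKA;1, at group means of 36.1 to 40.8 CPM.

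MCM2 and CYCB1;1 set hy5 apart. MCM2, a subunit of the replicative helicase, was at 106, 82.2 and 99.3 CPM in the 3 hy5 replicates at 0 h. In WT it was at 24.8, 30.7 and 24.5 CPM, in pif457 at 28.7, 32.0 and 32.6 CPM, and in hy5 pif457 at 29.4, 27.3 and 28.2 CPM. All hy5 libraries were above every library of the other genotypes, which overlapped one another. CYCB1;1, a mitotic cyclin used as a reporter of dividing cells, was at 31.5, 29.8 and 27.6 CPM in hy5 at 0 h, against 8.89, 10.3 and 8.95 CPM in WT. It was at 8.76, 13.1 and 12.4 CPM in pif457 and at 9.56, 9.50 and 7.37 CPM in hy5 pif457. Again the hy5 libraries stood above all others. For comparison, MCM5, a subunit of the same helicase, was at 34.4, 29.1 and 32.2 CPM in hy5 and at 26.3, 29.7 and 29.3 CPM in WT at 0 h, where the 2 groups overlap.

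The order held after the move to shade. MCM2 was at 80.9, 77.2 and 72.2 CPM in hy5 at 1 h and at 73.0, 67.0 and 101 CPM at 8 h, while WT held 29.8, 28.7 and 25.6 CPM at 1 h and 31.2, 30.8 and 32.8 CPM at 8 h. The highest MCM2 level in a library of another genotype was 37.7 CPM, in pif457 at 8 h. CYCB1;1 in hy5 was at 26.4, 27.9 and 17.6 CPM at 1 h and at 16.7, 16.8 and 21.7 CPM at 8 h. In WT it was at 9.29, 10.1 and 6.38 CPM at 1 h and at 8.68, 8.66 and 8.37 CPM at 8 h. The lowest hy5 value of this cyclin, 16.7 CPM, was above the highest of the other 27 libraries, 13.1 CPM.

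The MCM2 difference between hy5 and WT was 1.85 ± 0.13 in log2 (SE) at 0 h, 1.45 ± 0.13 at 1 h and 1.35 ± 0.13 at 8 h, with edgeR quasi-likelihood adjusted p of 1.26e-10, 2.21e-08 and 7.48e-08. For CYCB1;1 it was 1.66 ± 0.18, 1.48 ± 0.18 and 1.10 ± 0.18, with adjusted p of 5.83e-07, 5.44e-06 and 0.000369. These were the 2 members called in hy5 against WT, at each of the 3 times, out of 37. Calls of higher expression in hy5 made up 6.35% of all tested genes at 0 h, 2.27% at 1 h and 1.36% at 8 h, and calls of lower expression 3.14%, 2.0% and 1.24%. Both genes kept their calls at all 3 times under all 16 alternative settings, each library left out included. The median log2 difference over the other 16 G2/M members was 0.17 at 0 h and -0.37 at 8 h, and over the other 11 S members it was 0.17 and -0.28. At 8 h the 16 ran from -0.51 to -0.17 and the 11 from -0.37 to -0.15. None of them was called by edgeR, 11 and 6 had an unadjusted p under 0.05, and DESeq2 called 3 of all 37 members, MCM2 and CYCB1;1 included. Without replicate 3 of hy5 at 8 h, edgeR called 6 of the 37.

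The same contrast appeared within each library. MCM2 was 2.89 to 3.15 times the mean of MCM3 to MCM7, in CPM per kb, in the 9 hy5 libraries, and 0.875 to 1.06 times in the 27 others. CYCB1;1 was 2.17 to 2.56 times the mean of the other 7 B cyclins in the hy5 libraries, and 0.671 to 0.982 times in the others. In hy5 pif457, which carries the hy5 label too, HY5 transcripts were at 28.6% of WT at 0 h. There the log2 difference from WT at 0 h was 0.08 for MCM2 and -0.09 for CYCB1;1. A comparison added after these values were seen took the difference of hy5 pif457 from pif457 minus that of hy5 from WT. It is named below as the hy5 effect in the pif457 background minus that in the WT background. At 0 h it was -1.99 ± 0.18 in log2 for MCM2 (edgeR adjusted p = 4.59e-08) and -2.03 ± 0.25 for CYCB1;1 (adjusted p = 1.62e-05). At 1 h the difference was -1.81 ± 0.18 and -1.82 ± 0.25, and at 8 h it was -1.57 ± 0.18 and -1.30 ± 0.25. At each time these were the 2 members called by edgeR, while 0.107% of all tested genes were called lower in this comparison at 0 h, 0.0881% at 1 h and 9.48% at 8 h. Most of the 23 genes called lower at 0 h lie beside MCM2 or CYCB1;1 on their chromosomes, as described below, so the difference is not particular to cell cycle genes. Unadjusted p was under 0.05 for 8, 2 and 9 members, and DESeq2 called 2, 2 and 6.

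**Figure D1:**
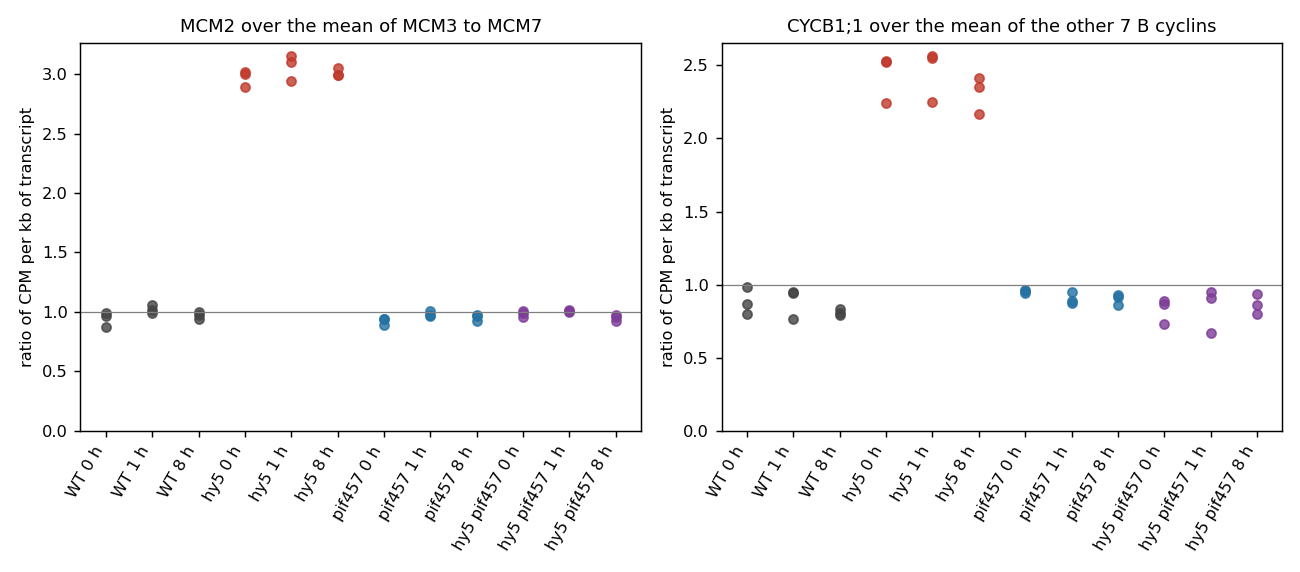
MCM2 over the mean of MCM3 to MCM7 (left) and CYCB1;1 over the mean of the other 7 B cyclins (right), as ratios of CPM per kb of transcript, on axes that start at 0. Each point is 1 library, 3 per group. The 9 hy5 libraries sit at 2.89 to 3.15 and at 2.17 to 2.56, above the 27 others.

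The genes beside MCM2 and CYCB1;1 on their chromosomes were higher in hy5 as well. In chromosome order, 14 tested genes in a row from AT1G44800 to AT1G45015, with MCM2 among them, were called higher by more than 2-fold in hy5 than in WT at 0 h. They span 109 kb at chr1:16913994-17022795 (TAIR10.1), with a median log2 difference of 1.60. Of the 10 tested genes on each side, 20 in all, 2 were called, and their median was -0.13. The neighbours include PRP40A, a splicing factor gene, at 1.67. CYCB1;1 lies in a row of 11 such genes from AT4G37460 to AT4G37553, which spans 41.7 kb at chr4:17608378-17650067, with log2 differences from 1.24 to 1.92 and a median of 1.58. There the 20 flanking genes had a median of -0.08, with 1 called higher and 1 lower. This row includes SRFR1 at 1.77 and KAI2, the karrikin receptor gene, at 1.24.

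The same 14 genes around MCM2 were called higher in hy5 at 1 h and at 8 h, with medians of 1.60 and 1.53, and so were the same 11 genes around CYCB1;1, with medians of 1.52 and 1.37. In hy5 pif457 against WT at 0 h, the median log2 difference was 0.00 over the 14 genes and 0.10 over the 11 genes. The gene at the far end of the first row, AT1G45015, was the only gene of the 2 rows called higher there, at 3.63. Most of the 23 genes called lower at 0 h for the hy5 effect in pif457 minus that in WT lie in the 2 rows. Among them are PRP40A at -1.76, SRFR1 at -1.51 and KAI2 at -1.71, though not every gene of the rows was called. No other row of neighbouring genes called by more than 2-fold in 1 direction, in any mutant against WT, was longer than 6 genes. The DNA of these lines was not analysed here, and whether the 2 stretches differ in copy number between the lines was not tested. HY5 itself lies on chromosome 5.

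**Figure D2:**
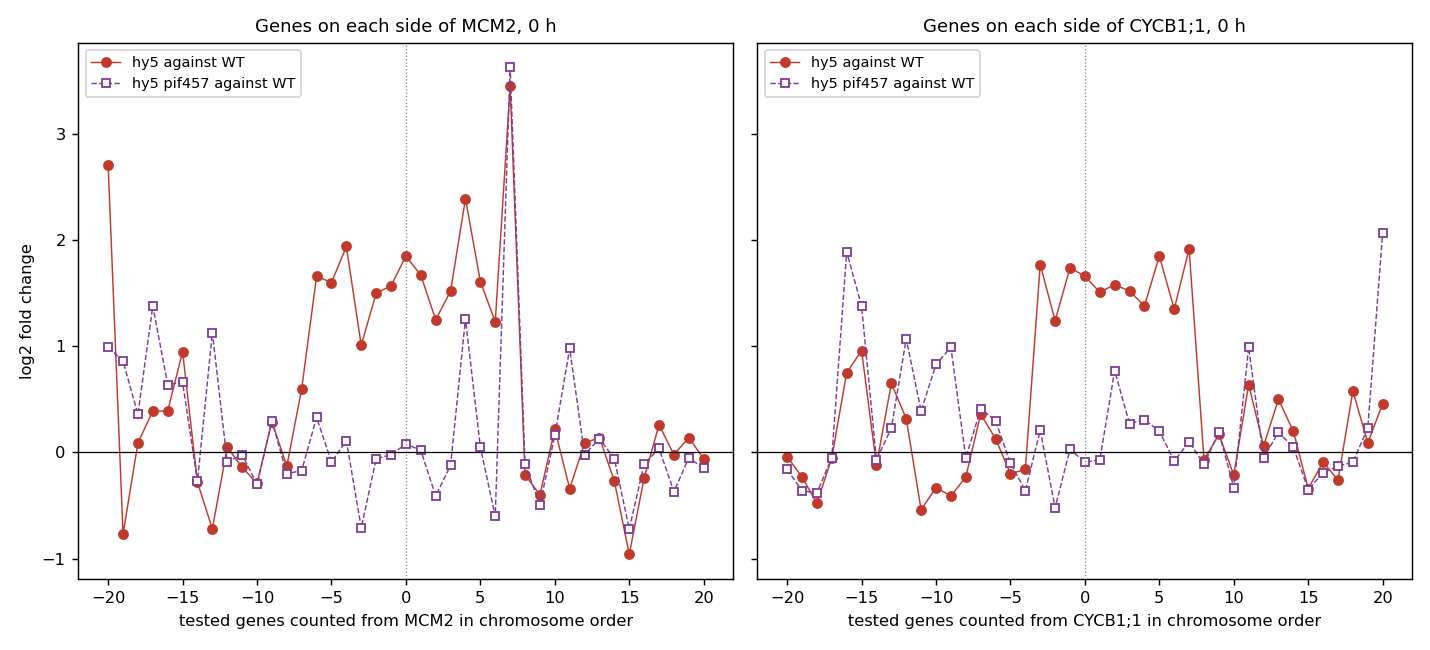
Log2 fold change against WT at 0 h for the 20 tested genes on each side of MCM2 (left) and CYCB1;1 (right), in chromosome order, with the member at 0 on the horizontal axis. In hy5 (filled circles) a block of 14 genes and a block of 11 genes lie above 1, with medians of 1.60 and 1.58, and in hy5 pif457 (open squares) the same genes have medians of 0.00 and 0.10.

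In WT, 1 member rose at 1 h of shade and another at 8 h. At 1 h the G1 factor E2FC, which is known to repress cell cycle genes, was at 10.8, 9.85 and 10.4 CPM, against 6.93, 9.27 and 8.06 CPM at 0 h. The groups did not overlap, and the log2 change was 0.36 ± 0.09 (edgeR adjusted p = 0.0234). It was the only member called at 1 h, when 3.56% of all tested genes rose and 1.64% fell. Its call was lost in 8 of 16 alternative settings, among them each of the 3 WT libraries at 1 h and replicates 1 and 3 at 0 h left out in turn, and its adjusted p ran from 0.00332 to 0.277 over the 16. At 8 h the only member called was CYCA2;1, an A2 cyclin that pairs with CDKB1 kinases, while 12% of tested genes rose and 7.11% fell. It was at 1.45, 1.47 and 0.987 CPM at 8 h and at 0.688, 0.550 and 0.768 CPM at 0 h, without overlap. The change was 0.96 ± 0.26 in log2 (adjusted p = 0.0110), at the lowest level of all members. The median log2 change at 8 h was 0.17 over the S members, 0.00 over the G2/M members and -0.07 over the G1 members, beside -0.03 over all tested genes.

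In hy5, members of G2/M fell at 8 h of shade. Of the 17, 9 fell and none rose, against 4.75% of all tested genes that fell and 4.52% that rose. CYCB2;2, a B cyclin, was at 11.5, 8.95 and 9.95 CPM at 0 h and at 5.30, 5.70 and 6.26 CPM at 8 h. At 1 h it was at 8.93, 9.04 and 6.78 CPM. All 8 h libraries were below all those of the other times, and the change from 0 h was -0.82 ± 0.17 in log2 (edgeR adjusted p = 0.00188). The WT libraries held 8.73, 7.29 and 7.97 CPM at 0 h and 7.86, 8.75 and 7.43 CPM at 8 h. Its relative CYCB2;4 went from 17.5, 16.2 and 13.3 CPM to 8.81, 8.32 and 9.51 CPM, again without overlap, with a change of -0.82 ± 0.19 (adjusted p = 0.00670). CYCB1;1, from the raised level given above, had a change of -0.69 ± 0.18 (adjusted p = 0.0116), and stayed above every WT library.

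CDKB2;2, a kinase specific to plants that acts at the G2/M transition, was at 15.5, 11.6 and 12.6 CPM at 0 h and at 8.47, 8.29 and 10.2 CPM at 8 h (log2 change -0.56 ± 0.14, adjusted p = 0.0115). CYCA1;1, a mitotic A cyclin, was at 17.3, 13.9 and 13.3 CPM at 0 h and at 6.63, 8.08 and 11.3 CPM at 8 h (log2 change -0.78 ± 0.21, adjusted p = 0.0152). Both pairs of groups were apart. The other 4 that fell were KNOLLE, the syntaxin of the cell plate, with -0.66 ± 0.20, and the B cyclins CYCB1;2 with -0.58 ± 0.18, CYCB2;1 with -0.93 ± 0.25 and CYCB2;3 with -0.60 ± 0.16. KNOLLE was at 50.0, 47.1 and 38.2 CPM at 0 h and at 26.6, 27.6 and 31.4 CPM at 8 h, without overlap. The last and the first of these cyclins share 17.3% and 11.8% of their 50-base stretches with another gene, so their values are uncertain. Of the 8 members that did not pass the test, CYCA2;1 had the smallest change, -0.08, and all 17 G2/M members were negative, with a median of -0.58.

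At the same time no S or G1 member was called in hy5 by edgeR. All 12 S members were negative, between -0.40 and -0.18, with a median of -0.28, and 6 of them had an unadjusted p under 0.05. Of the 7 G1 members, 5 were negative, the median was -0.30 and 4 had an unadjusted p under 0.05. CYCD3;1 and CYCD3;2, which hold leaf cells in division, were at -0.73 ± 0.25 and -0.61 ± 0.28, and CYCD1;1 at 0.29 ± 0.22. With DESeq2, 13 of the 37 members were called. CDKA;1 had a change of 0.05 ± 0.06 and was not called.

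**Figure D3:**
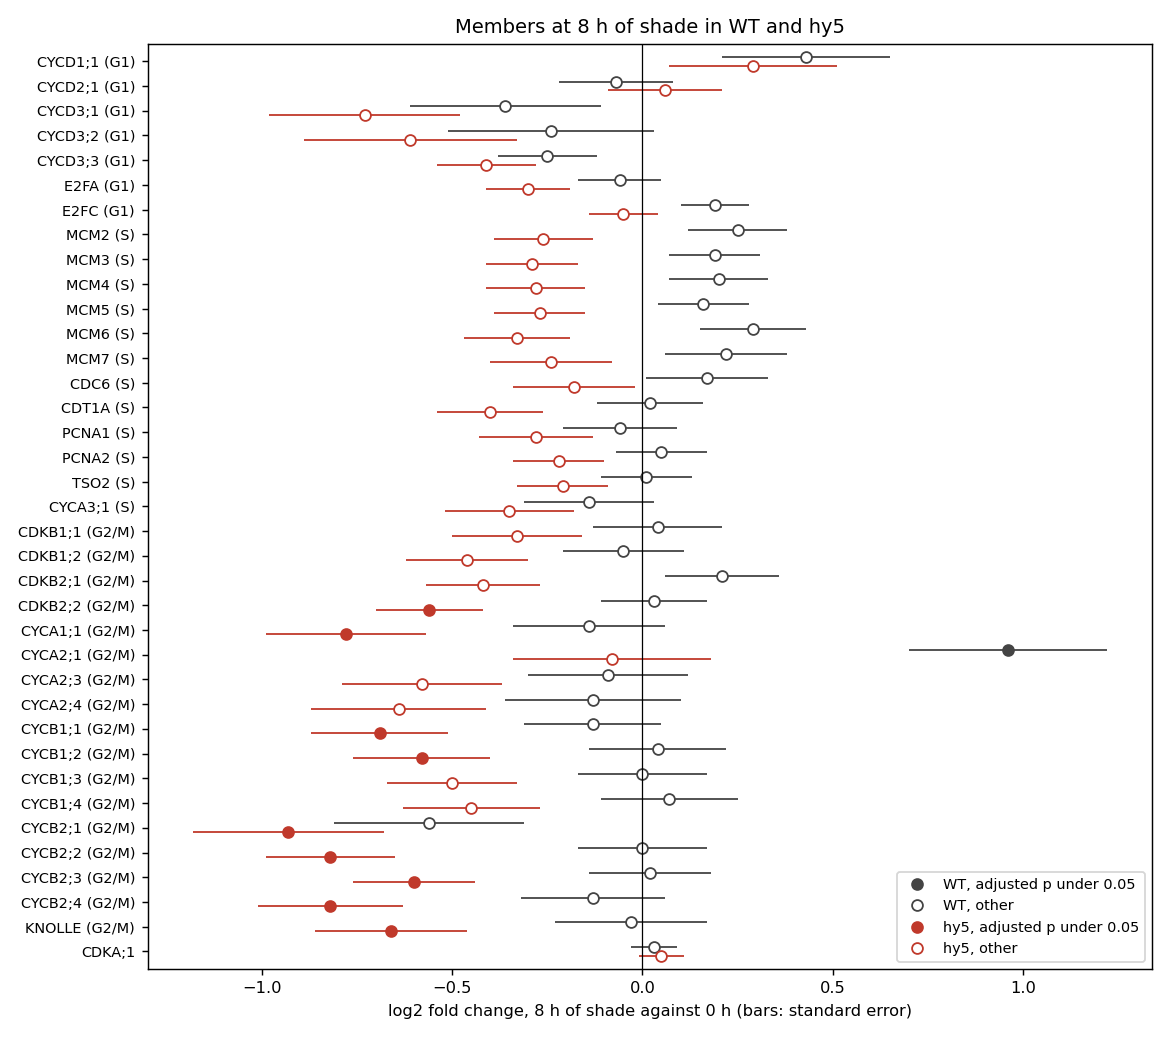
Log2 fold change of each of the 37 members at 8 h of shade against 0 h, in WT (grey) and hy5 (red), with standard errors as bars and filled points for an adjusted p under 0.05. In hy5 all 17 G2/M members lie left of 0 with 9 filled, whereas in WT they lie on both sides with 1 filled point, an A2 cyclin.

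The size of the G2/M count rested on a few libraries. It was 2 without replicate 2 of hy5 at 8 h, the library with the lowest shoot marker level, 4 without replicate 1 of that group and 3 without replicate 1 of hy5 at 0 h. It was 4 when the fit held only the hy5 libraries at 0 and 8 h, and 11 with DESeq2. The 2 B2 cyclins with the lowest adjusted p, described first above, kept their calls in all 16 settings, with log2 changes of -0.90 to -0.72 and -0.93 to -0.70. At least 16 of the 17 members were negative in every setting. The mean log2 CPM of the 9 shoot meristem and leaf primordium markers was 1.54, 2.57 and 2.76 in the hy5 libraries at 8 h and 2.36 to 2.61 at 0 h, and none of the 7 tested markers was called. Root tissue markers averaged 2.33 to 2.77 at 8 h and 1.10 to 2.35 at 0 h, with none of 21 called. With the shoot score as a covariate, a fit added after the data were seen, 12 of the 17 were called lower, and with the root score 7 were. The shares of all tested genes called under these settings are not given here.

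The hy5 response at 8 h was not shown to differ from that of WT. The difference of the 2 responses was called for none of the 37 members by edgeR, with 1.53% of all tested genes called, although 16 members had an unadjusted p under 0.05. DESeq2 called 1 member, and edgeR called 4 without replicate 3 of hy5 at 8 h. The differences over the 17 G2/M members ran from -1.04 to -0.36, with a median of -0.59, and the lowest adjusted p was 0.0804. At 1 h in hy5 no member was called by edgeR, beside 6.77% of all tested genes. At that time 14 members had an unadjusted p under 0.05, with DESeq2 calling 2, and all 12 S and all 17 G2/M members were negative, with medians of -0.31 and -0.33. From 1 h to 8 h no member was called by edgeR in WT, hy5 or pif457, beside 8.16%, 7.17% and 2.51% of all tested genes. Unadjusted p was under 0.05 for 3, 6 and 2 members, and DESeq2 called 0, 2 and 0.

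**Figure D4:**
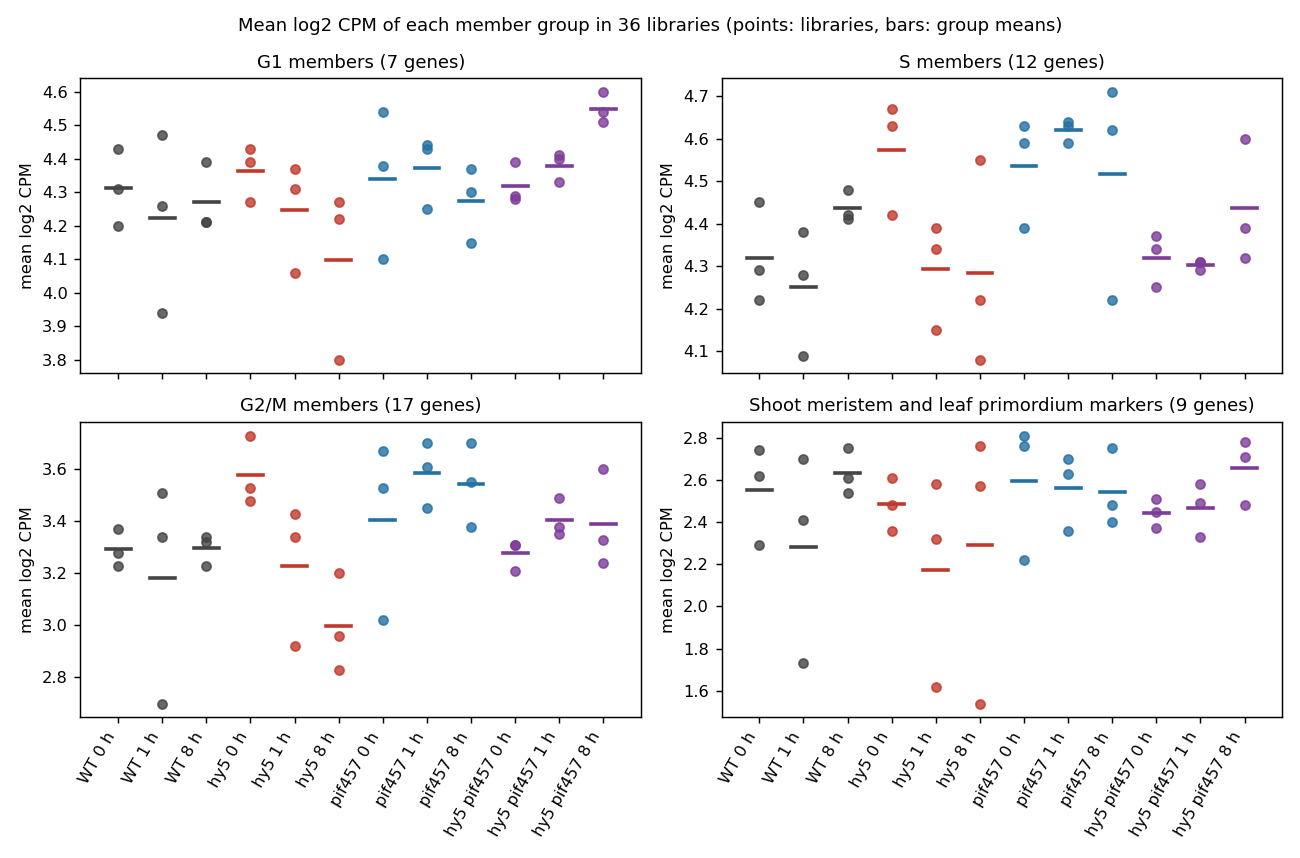
Mean log2 CPM of the G1, S and G2/M members and of the shoot meristem and leaf primordium markers in the 36 libraries, by group, with points for libraries and bars for means of 3. The lowest shoot marker values, 1.73, 1.62 and 1.54, belong to 1 library each of WT at 1 h, hy5 at 1 h and hy5 at 8 h, and the same 3 libraries have the lowest G2/M value of their group (2.70, 2.92 and 2.83).

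In pif457, no member was called by edgeR at 1 h or at 8 h of shade, when 0.227% and 9.94% of all tested genes were called. At 1 h all 17 G2/M members were positive, between 0.05 and 0.26, and at 8 h the medians were 0.07 over G2/M, 0.06 over S and -0.09 over G1. Unadjusted p was under 0.05 for 0 members at 1 h and for 2 at 8 h, and DESeq2 called 0 and 1. The kinase CDKB1;1, which restrains endoreduplication together with A2 cyclins, came closest at 8 h with 0.49 in log2 and an adjusted p of 0.0570. The gene was at 4.55, 6.08 and 5.31 CPM at 0 h and at 6.22, 8.45 and 7.69 CPM at 8 h. Those libraries at 8 h are among the rRNA-rich ones, and those at 0 h are not.

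Against WT, pif457 had no member called by edgeR at 0, 1 or 8 h, when 0.0835%, 2.57% and 11.3% of all tested genes were called. At 1 h, 22 of the 37 members had an unadjusted p under 0.05 and 33 were positive, with medians of 0.39 over the S members, 0.35 over the G2/M members and 0.12 over the G1 members. DESeq2 called 3 of them at 1 h, 1 at 8 h and 0 at 0 h, and at 0 h and 8 h the unadjusted p was under 0.05 for 3 and 5 members. The shares of all tested genes at such a p are not given here, so these counts do not set the list apart. The WT group at 1 h holds the library with a low shoot marker level, replicate 3, in which the G2/M members averaged 2.70 in log2 CPM against 3.51 and 3.34 in the other replicates.

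In hy5 pif457, the G1 cyclin CYCD1;1 and the S-phase cyclin CYCA3;1 rose at 8 h. CYCD1;1 was at 26.3, 23.1 and 20.5 CPM at 0 h, at 24.6, 24.1 and 25.1 CPM at 1 h and at 42.4, 39.5 and 44.6 CPM at 8 h. The 8 h libraries stood above the rest, by 0.86 ± 0.22 in log2 against 0 h (edgeR adjusted p = 0.0161) and by 0.78 ± 0.22 against 1 h (adjusted p = 0.0457), where edgeR called no other member, beside 2.09% of all tested genes called higher. In that comparison 4 members had an unadjusted p under 0.05, and DESeq2 called 2. In WT at 8 h this cyclin was at 33.6, 39.6 and 33.1 CPM, in hy5 at 40.1, 24.5 and 40.8 CPM and in pif457 at 23.0, 24.5 and 21.5 CPM. A gene is annotated on its other strand, and the strand setting of the counts is not given in the sources used here. CYCA3;1 was at 4.80, 2.87 and 4.51 CPM at 0 h and at 6.68, 6.12 and 6.06 CPM at 8 h, a change of 0.63 ± 0.17 (adjusted p = 0.0225).

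These were 2 members against 4.73% of all tested genes that rose and 6.2% that fell. Each of the 2 calls was lost in 3 of 15 settings, and neither was called with the root marker score as a covariate. Replicates 2 and 3 at 0 h and replicates 1 and 3 at 8 h each left 1 called member when left out. Root tissue markers averaged 2.62 to 3.34 in log2 CPM at 0 h and 1.27 to 1.75 at 8 h. Of the 37 members, the S-phase cyclin was the only one whose 8 h response differed between hy5 pif457 and WT, by 0.77 ± 0.24 in log2 (adjusted p = 0.0366), beside 4.74% of all tested genes called higher in this comparison. At 1 h no member was called in hy5 pif457 by edgeR or by DESeq2, with 0.181% of all tested genes called and 1 member at an unadjusted p under 0.05.

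At 8 h of shade, members were higher in hy5 pif457 than in hy5. Of the 37, 14 were called higher, beside 11.5% of all tested genes, and 2 lower, beside 12.1%. The 2 lower were MCM2, at -1.46 ± 0.13, and CYCB1;1, at -0.90 ± 0.18. The 14 higher were 9 of the 17 G2/M members, 4 of the 7 G1 members and CYCA3;1 of S. CYCB2;2 was at 9.20, 10.5 and 8.45 CPM in hy5 pif457, above the hy5 values given before, a difference of 0.71 ± 0.17 (edgeR adjusted p = 0.00487). CYCD3;1 was at 41.0, 41.5 and 44.2 CPM in hy5 pif457 and at 26.2, 16.8 and 30.3 CPM in hy5, a difference of 0.79 ± 0.25 (adjusted p = 0.0235). Its relative CYCD3;2 was at 65.7, 62.3 and 69.0 CPM in hy5 pif457 and at 41.1, 19.6 and 37.5 CPM in hy5, a difference of 1.00 ± 0.28 (adjusted p = 0.0115). In both cyclins the groups were apart, and replicate 2 of hy5 was the lowest library. E2FA, an activator of replication genes, was at 10.2, 10.4 and 11.3 CPM against 8.49, 6.39 and 10.1 CPM, a difference of 0.35 ± 0.12 (adjusted p = 0.0301). CYCD3;3 differed by 0.57 ± 0.13. Of the G2/M kinases, CDKB1;2 was at 6.47, 7.68 and 6.19 CPM in hy5 pif457 and at 4.55, 4.04 and 5.42 CPM in hy5, a difference of 0.54 ± 0.16 (adjusted p = 0.0204).

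The number of G2/M members called higher was 1 without replicate 2 of hy5 at 8 h and 4 without replicate 1 or replicate 2 of hy5 pif457 at 8 h. It was 3 with the root score and 6 with the shoot score as a covariate. Of the G1 members, E2FA lost its call in 6 of 15 alternative settings, CYCD3;1 in 4, CYCD3;2 in 1 and CYCD3;3 in 0. The 3 hy5 pif457 libraries are rRNA-rich and the hy5 libraries are not, so genotype and rRNA share cannot be told apart. At 0 h and at 1 h the 2 lower genes named above were the only members called in hy5 pif457 against hy5, both lower, beside 0.339% and 2.43% of all tested genes called lower.

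Against pif457, hy5 pif457 had lower levels of TSO2, which supplies deoxynucleotides, at 0 h (-0.41 ± 0.12 in log2, adjusted p = 0.0414) and at 1 h (-0.44 ± 0.12, adjusted p = 0.0254). At both times the hy5 pif457 libraries are rRNA-rich and the pif457 libraries are not, so genotype and rRNA share cannot be told apart. TSO2 was at 100, 110 and 106 CPM in hy5 pif457 and at 122, 136 and 161 CPM in pif457 at 0 h, without overlap. At 0 h edgeR and DESeq2 each called 1 member, beside 2.25% of all tested genes called lower. At 1 h the helicase subunits MCM3 and MCM5 were called too by edgeR, each at -0.40 ± 0.12, beside 2.83% called lower, and DESeq2 called 5 members. MCM3 was at 22.8, 23.2 and 22.9 CPM in hy5 pif457 and at 28.9, 30.8 and 31.2 CPM in pif457, and MCM5 at 26.1, 27.5 and 26.9 CPM against 35.3, 36.6 and 34.6 CPM. At 8 h CYCD1;1 was higher by 0.87 ± 0.22 and CDC6 by 0.46 ± 0.16, beside 11.3% of all tested genes, and CDKB1;1 was lower, at -0.72 ± 0.17, beside 15.1%. This kinase was at 4.63, 5.29 and 3.67 CPM in hy5 pif457, below the pif457 values given above. Another gene overlaps TSO2 on the same strand, and genes on the other strand overlap CDC6 and the kinase. Against WT at 8 h, CYCA3;1 was the member called by edgeR in hy5 pif457 (0.62 ± 0.17, adjusted p = 0.0139), beside 8.1% called higher, while 5 members had an unadjusted p under 0.05 and DESeq2 called 3. Here too the hy5 pif457 libraries are rRNA-rich and the WT libraries are not. At 0 h and 1 h edgeR and DESeq2 called 0 members, beside 8.94% and 7.57% of all tested genes called by edgeR, and unadjusted p was under 0.05 for 0 and 3.

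Other genes of the cell cycle were followed in 8 lists. Among 14 tested inhibitors of CDKs, SMR1, known for promoting endoreduplication, fell in WT at 1 h by 0.90 on the log2 scale (adjusted p = 1.17e-05) and at 8 h by 1.00 (adjusted p = 1.44e-06). It was the only inhibitor called in WT at 1 h, and at 8 h, when 7.11% of all tested genes fell, 4 of the 14 fell and none rose, among them KRP7 with -1.28 ± 0.25 and KRP1 with -0.58 ± 0.16. SMR1 also fell in hy5 at 1 h, by 1.06, and in pif457 at 8 h, by 0.69, when 3.15% and 4.58% of all tested genes fell. In hy5 SMR1 rose again from 1 h to 8 h, by 0.72 (edgeR adjusted p = 0.000363). It was already lower in hy5 than in WT at 0 h, at -0.49 (adjusted p = 0.0124), where the libraries overlap. In hy5, KRP1 was at -0.69 at 1 h and -0.67 at 8 h against 0 h, while KRP2 rose at 8 h by 0.31, all called. RBR1, the retinoblastoma protein that binds E2F factors, rose in WT at 8 h by 0.46 ± 0.10 and in pif457 by 0.35 ± 0.10. It was the only one called of 7 genes of the RBR, E2F and DP list. Of all tested genes, 12% rose in WT and 5.36% in pif457, so 1 gene of 7 does not set this list apart. RBR1 was also higher in hy5 than in WT at 0 h, by 0.38 ± 0.10 (edgeR adjusted p = 0.0198). Of 23 genes of origin recognition and the fork, 4 rose and 2 fell in WT at 8 h, when 12% of all tested genes rose and 7.11% fell, so the counts do not set this list apart. The DNA polymerase epsilon gene TIL1 rose by 0.40 ± 0.11, the clamp loader gene RFC1 rose by 0.28 ± 0.08, and RNR2A, another ribonucleotide reductase subunit gene, fell by 0.56.

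In hy5 at 8 h, 11 of 19 genes of mitosis and cytokinesis fell and none rose, with a median log2 change of -0.62, beside 4.75% of all tested genes that fell and a median of 0.00 over them. The count comes from the same hy5 libraries as the G2/M member count, which was 2 without replicate 2 at 8 h. How it moves with single libraries left out is not given for this list. PANS1, a securin, fell by 0.79 (adjusted p = 0.00413), HIK, a kinesin of cytokinesis, by 0.77 (adjusted p = 0.0110), and MYB3R4, an activator of genes with MSA elements, by 0.67 (adjusted p = 0.0132). The median of the same list at 8 h was -0.02 in WT, 0.03 in pif457 and 0.18 in hy5 pif457, with 0 called by edgeR in each, and 1, 1 and 4 genes at an unadjusted p under 0.05. These counts do not test a difference between genotypes, and the difference of the responses is not given for this list. For the members, edgeR called no difference between the hy5 and WT responses at 8 h. POK2, another of the 11 that fell, was already higher in hy5 than in WT at 0 h, by 0.55 ± 0.18 (edgeR adjusted p = 0.0499). Of 10 other cyclins tested in hy5 at 8 h, 3 fell, with CYCD6;1 at -1.31 ± 0.29, and 2 of the 23 origin and fork genes fell, beside the same 4.75%, CDT1B at -0.85 ± 0.18 and RNR2A at -0.59 ± 0.12. In hy5 pif457 at 8 h, 3 of the 23 origin and fork genes rose, beside 4.73% of all tested genes, PSF2 by 0.48 ± 0.14, FAS2 by 0.39 ± 0.12 and CDC6B by 0.57 ± 0.18. The kinase WEE1 rose by 0.50 ± 0.14 there, and the cyclin CYCA3;2 by 0.40 ± 0.11.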

How the data were processed

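Stranded mRNA libraries of 36 whole-seedling samples were sequenced as paired reads of 50 bases, per the labels. Per the submitters' processing notes, the authors used STAR 2.5.3a, RSEM 1.3.0 and the TAIR10 build. The deposited table holds expected counts per gene, all whole numbers, so they had been rounded. No strand setting or annotation release is given in the sources used here.

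The members, lists and tests were chosen with earlier results of these data known. All 36 libraries were fitted together with 12 group terms in edgeR 4.0.16 (R 4.3.3; quasi-likelihood F-test, 2-sided, TMM scaling, filterByExpr with a minimum count of 10 and a minimum total of 15), which tested 21562 genes. Benjamini-Hochberg adjustment ran over all tested genes of each comparison, and genes with an adjusted p under 0.05 are said to be called. By rule, values in every sample are given for members called at 1 h or 8 h against 0 h or in a mutant against WT at 0 h, at most 5 per phase and comparison by adjusted p. Members so described in other comparisons (between hy5 pif457 and its parents, CDKB1;1 in pif457, KNOLLE in hy5) were chosen after their values were seen. At most 3 called genes per other list and comparison were named, by adjusted p. Marker scores are means of log2 CPM with a prior count of 2.

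The alternatives were RLE size factors, DESeq2 1.42.0, 2 other filters on low counts, replicate number as a block, a fit restricted to the groups compared, omission of single libraries, of rRNA and organelle genes or of rRNA-rich libraries, and marker scores as covariates. Each group had 3 libraries, with 30846115 or more counts each. Taken over many genes at once, every pair of replicates differed by more than counting noise, with a chi-square of at least 4.04 per degree of freedom. Counting error was not weighed separately for members at low levels, such as CYCA2;1. Promoters and neighbours came from TAIR10.1 with its RefSeq annotation, where 32548 of 32833 identifiers matched. The analysis was tested on simulated data.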

Additional observations from a re-analysis of the deposited data

Results flagged for a closer look

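The difference between lines with and without the hy5 label depended on the background for MCM2 and CYCB1;1. The comparison that tested this was added after the values were seen. Whether the difference comes from the loss of HY5 was not tested. The hy5 effect in the pif457 background minus that in the WT background was, in log2, -1.99 for MCM2 at 0 h, -1.81 at 1 h and -1.57 at 8 h, and -2.03, -1.82 and -1.30 for CYCB1;1, all with an edgeR adjusted p of at most 0.00893. These were the 2 members called by edgeR at each time, whereas DESeq2 called 2, 2 and 6 members at 0, 1 and 8 h. Beside both genes lie the rows of neighbours that were higher in hy5 than in WT, with medians near 0 in hy5 pif457. Most of the 23 genes called lower in the added comparison at 0 h lie in these rows. Copy number in the lines was not tested.

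CYCA3;1 responded differently in hy5 pif457 and WT at 8 h of shade, by 0.77 in log2 (edgeR adjusted p = 0.0366). Its level went from 4.06 ± 1.04 CPM to 6.29 ± 0.343 CPM (SD, n = 3) in hy5 pif457 and from 4.51 ± 0.509 to 4.10 ± 0.292 CPM in WT. Of all tested genes, 4.74% were called higher in this comparison and 8.94% lower. The call of the rise within hy5 pif457 was lost with the root score as a covariate. It was also lost without replicate 2 at 0 h or without replicate 1 at 8 h.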

How the results depend on the processing

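No log2 fold change changed sign; of the recomputed values for called members, 518 kept their call and 96 lost it. For the number of members called, the values that moved by over 1.5 times in the comparisons recomputed under every setting were as follows, and the cause was not tested. The shares of all tested genes called under each setting, or with a library left out, are not given here. A change in the members alone therefore cannot be told apart from a change over all genes. WT at 1 h (1 called) gave 0 with no filter on low counts, 0 without the rRNA-rich libraries, 0 with only the groups compared and 2 with the shoot marker score. WT at 8 h (1) gave 3 with the root score, 5 with the shoot score and 0 with only the groups compared. For hy5 at 1 h (0), RLE factors, the CPM filter and leaving out rRNA and organelle genes each gave 1, and DESeq2 gave 2. For hy5 at 8 h (9), the shoot score gave 17 and only the groups compared gave 4. In pif457 at 8 h (0), the shoot score and DESeq2 each gave 1. In hy5 pif457 at 8 h (2), the root score gave 0 and only the groups compared gave 6. In hy5 pif457 against hy5 at 8 h (16), the root score gave 8. The hy5 response minus the WT response at 8 h (0) gave 1 with the shoot score and 1 with DESeq2. In comparisons rerun with DESeq2 but not with every other setting, the count went from 2 to 6 for the hy5 effect in pif457 minus that in WT at 8 h, from 1 to 3 for hy5 pif457 against WT at 8 h, from 1 to 2 for hy5 pif457 at 8 h against 1 h, from 3 to 5 for hy5 pif457 against pif457 at 1 h, from 0 to 2 for hy5 at 8 h against 1 h, and from 0 to 3 at 1 h and 0 to 1 at 8 h for pif457 against WT.

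With each library left out in turn, the count ran from 0 to 1 in WT at 1 h, 1 to 2 in WT at 8 h (2 without replicate 2 at 0 h), 0 to 1 in hy5 at 1 h (1 without replicate 2 at 0 h), 2 to 18 in hy5 at 8 h (18 without replicate 3 at 8 h), 0 to 2 in pif457 at 8 h (2 without replicate 1 at 8 h) and 1 to 2 in hy5 pif457 at 8 h. It ran from 2 to 6 in hy5 against WT at 8 h (6 without replicate 3 of hy5), 5 to 21 in hy5 pif457 against hy5 at 8 h (5 without replicate 2 of hy5, 9 without replicate 1 of hy5 pif457) and 0 to 4 in the response difference (4 without replicate 3 of hy5 at 8 h). Replicate numbers were not treated as pairs in the main fit. Deviations of same-numbered libraries correlated at over 0.1 in every pair in 4 of 27 comparisons. Among these were 1 h against 0 h in pif457 (0.24 to 0.68) and in hy5 (0.31 to 0.41), where pairing is not excluded. With the replicate block, hy5 at 8 h had 9 members called and hy5 pif457 against hy5 at 8 h had 14. In 200 bases before the gene start, the E2F site was found for 41.7% of S members and the MSA core for 58.8% of G2/M members, against 1.27% and 18.3% of tested protein-coding genes.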
